A study of Homo sapiens with 15 samples.

Results

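The genes described are 34 genes of the endoplasmic reticulum (ER) that code for chaperones, disulfide isomerases, sensors of the unfolded protein response, parts of the ER-associated degradation machinery and a few proteins of ER import and export. They are given as a list of names, drawn up with earlier results of these data known, and were found through the gene symbol of the array's probe sets. Of the 34 genes, 33 had a probe set of their own and all 33 were among the 16005 genes tested. The remaining gene, PDIA3, which codes for a disulfide isomerase of glycoproteins, was measured only on 2 probe sets shared with other genes and is not described further.

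The messenger RNA of 15 A549 cultures was read on Affymetrix whole-transcript arrays, 1 for each culture. A549 is an epithelial line from a human lung adenocarcinoma. The cultures formed 5 groups of 3, namely hypoxia with 10 µM BB2-125, hypoxia with 10 µM BB2-162, hypoxia with 10 µM BB2-282, hypoxia with vehicle and normoxia with vehicle. Every group held 0.1% DMSO, and in the hypoxic groups compound or vehicle was added 6 h before 42 h of hypoxia in a gas-generating pouch. The series title calls the compounds oligooxopiperazines, the design text calls them transcriptional inhibitors, and they are known only by code names. Normoxic cultures given a compound were not analysed here, so an effect on the response to hypoxia and an effect of the compound on the cells in general cannot be told apart. Cultures of 1 group are labelled as biological replicates, and since the labels give no more on their origin, a p-value here reflects the spread among these cultures, which may be technical.

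Proteins that enter the ER are folded there by chaperones, which hold unfolded chains, and by isomerases, which form and shuffle disulfide bonds. When unfolded chains accumulate, the sensors IRE1, PERK and ATF6 start the unfolded protein response, which raises the transcription of chaperones, isomerases and degradation factors and lowers protein synthesis. Chains that cannot be folded are passed back to the cytosol and degraded there, a route called ER-associated degradation.

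Levels below are log2 signals of 1 probe set for each gene, and changes are differences of group means on that scale with limma's standard error after ±. A gene was called, and is said to have risen or fallen, at a Benjamini-Hochberg adjusted p under 0.05 over all 16005 genes of a comparison. Signals of different probe sets are not compared with each other. The hypoxia label held up against hypoxia-induced genes outside this set, with changes of 4.15 ± 0.09 for NDRG1, 3.66 ± 0.11 for VEGFA and 2.25 ± 0.12 for EGLN3 in hypoxic over normoxic vehicle cultures. All 6 epithelial markers (KRT7, KRT8, KRT18, KRT19, EPCAM, CDH1) lay above the array's 25th percentile in each group, and their summed intensity ran from 20400 to 22800 with BB2-125, 16200 to 20400 with BB2-162, 15100 to 17600 with BB2-282, 17600 to 19000 in hypoxic vehicle cultures and 22900 to 24400 in normoxic vehicle cultures. The part of these differences in the results below was not tested. Of the markers of other cell types, 3 of 4 measured for leukocytes (CD3E, ITGAM, LST1, but not PTPRC) and 3 of 5 for fibroblasts (COL1A1, COL1A2, PDGFRB, but not LUM and DCN) lay above that percentile in each group. Of 5 endothelial markers (CDH5, KDR, VWF, TEK, PECAM1) all did in the compound groups, all but TEK in hypoxic vehicle cultures and all but PECAM1 in normoxic vehicle cultures. The leukocyte sum was 245 to 268 with BB2-125, 249 to 309 with BB2-162, 248 to 253 with BB2-282, 217 to 238 in hypoxic vehicle cultures and 192 to 209 in normoxic vehicle cultures. For fibroblasts it was 341 to 387 with BB2-125, 397 to 446 with BB2-162, 384 to 421 with BB2-282, 322 to 373 in hypoxic vehicle cultures and 357 to 375 in normoxic vehicle cultures. For endothelium it was 182 to 187 with BB2-125, 180 to 207 with BB2-162, 171 to 185 with BB2-282, 165 to 177 in hypoxic vehicle cultures and 150 to 160 in normoxic vehicle cultures. These sums run over 4 leukocyte, 5 fibroblast and 5 endothelial genes, and the median intensity of a probe set was 74.91 to 84.6 across arrays. All cultures were of the A549 line, and a signal above the 25th percentile does not show that another cell type was present. The part of these markers in the results was not tested either. Replicate 1 of BB2-162 was unlike its group. Its root mean square log2 distance from the group mean was 0.2274, where the other arrays gave 0.1109 to 0.1781, so the counts for BB2-162, and most of its single-gene changes against hypoxic vehicle, are also given without it.

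The ER stress response elements are promoter sequences known from classical chaperone genes. They are shown because some members hold an exact match in the window searched and others do not. Inexact copies and other regions were not searched. The windows searched were RefSeq promoters of the GRCh38.p14 build, 300 bases long, with 250 bases before the annotated gene start, and 30 of the 34 genes had one (not DERL1, DERL3, SEC24D and PDIA3). The ER stress response element, ERSE, was searched as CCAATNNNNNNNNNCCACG on both strands. It was found in 6 of the 30 windows (20%), against 22 of all 27305 windows (0.0806%) and 0.12% of the windows of tested genes. The element is known from chaperone genes of this kind, so a high share could be foreseen from the choice of genes. Each is printed on the strand that reads CCAAT first, with the fixed letters in capitals.
HSPA5: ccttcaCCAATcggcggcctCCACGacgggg
HSP90B1, site nearer the start: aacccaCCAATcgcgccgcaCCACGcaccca
HSP90B1, site farther from the start: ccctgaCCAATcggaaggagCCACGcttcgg
CALR: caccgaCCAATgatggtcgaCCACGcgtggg
CANX: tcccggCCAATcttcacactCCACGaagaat
CRELD2: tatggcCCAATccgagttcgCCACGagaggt
XBP1: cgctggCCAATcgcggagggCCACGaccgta
These stretches lie at chr9:125241385-125241415 on the minus strand, chr12:103930315-103930345 on the minus strand, chr12:103930210-103930240 on the plus strand, chr19:12938378-12938408 on the minus strand, chr5:179698772-179698802 on the plus strand, chr22:49918548-49918578 on the minus strand and chr22:28800597-28800627 on the minus strand.

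The related element ERSE-II was searched as ATTGGNCCACG on both strands. It was present in the windows of 3 genes (10%), against 15 of all windows (0.0549%) and 0.104% of the windows of tested genes. HYOU1 held a pair of them.
HYOU1, site farther from the start: cctgggATTGGaCCACGtcacgg
HYOU1, site nearer the start: gtactcATTGGaCCACGtcccag
SDF2L1: gttttgATTGGtCCACGcttccg
HERPUD1: acgccgATTGGgCCACGttggga
They lie at chr11:119057374-119057396 and chr11:119057268-119057290 on the plus strand, chr22:21642108-21642130 on the minus strand and chr16:56932019-56932041 on the plus strand. The short element TGACGTG, to which XBP1 is known to bind, stood in 1 window of the set (3.33%), that of HYOU1, where it overlaps an ERSE-II, and in 546 of all windows (2%). The core of the hypoxia response element, ACGTG or GCGTG, stood in 27 of the 30 windows (90%), against 13213 of all windows (48.4%) and 59.1% of the windows of tested genes. HSPA5, DERL2 and SEC61B held none of these core letters in this window. A CCACG followed by T or C is a core match on the other strand, so the core and the ER stress elements can share letters. No test was made of these shares, and a match is a description of the letters.

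The 250 bases before the start are given for HSPA5, HYOU1 and HERPUD1, which moved differently by group and together hold ERSE, ERSE-II and TGACGTG. They are printed in the direction of the gene, with the letters of ERSE, ERSE-II and TGACGTG in capitals, so that the ERSE-II pair of HYOU1 appears here as its reverse complement.
HSPA5: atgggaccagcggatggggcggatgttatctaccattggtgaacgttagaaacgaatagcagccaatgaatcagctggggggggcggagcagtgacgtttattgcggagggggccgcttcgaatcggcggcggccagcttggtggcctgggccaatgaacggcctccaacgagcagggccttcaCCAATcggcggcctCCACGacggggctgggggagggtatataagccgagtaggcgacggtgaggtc
HYOU1: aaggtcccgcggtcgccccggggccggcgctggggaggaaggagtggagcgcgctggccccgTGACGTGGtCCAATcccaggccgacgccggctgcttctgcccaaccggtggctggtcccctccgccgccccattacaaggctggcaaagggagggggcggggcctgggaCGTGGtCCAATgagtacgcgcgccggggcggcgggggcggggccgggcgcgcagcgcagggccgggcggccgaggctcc
HERPUD1: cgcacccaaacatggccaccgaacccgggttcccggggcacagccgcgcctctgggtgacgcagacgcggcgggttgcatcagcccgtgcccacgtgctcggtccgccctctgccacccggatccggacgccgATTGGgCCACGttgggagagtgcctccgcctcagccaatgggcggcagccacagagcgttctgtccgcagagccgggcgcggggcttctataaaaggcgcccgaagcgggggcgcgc
These runs lie at chr9:125241344-125241593 on the minus strand, chr11:119057206-119057455 on the minus strand and chr16:56931892-56932141 on the plus strand.

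**Figure D1:**
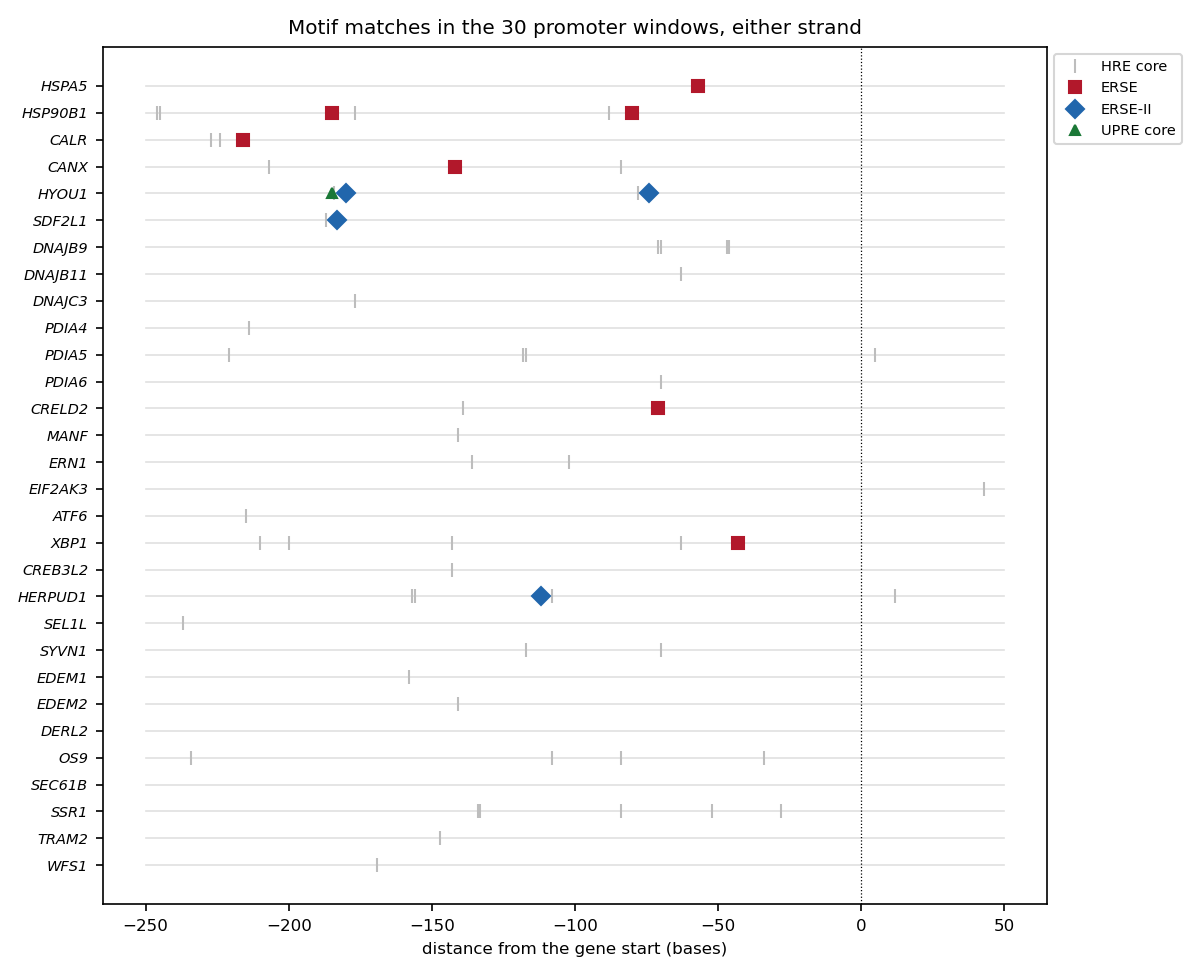
Positions of the searched letters in the 30 promoter windows, from 250 bases before to 50 bases after the annotated start, with 1 line for each gene and the distance from the start in bases on the horizontal axis. Squares mark ERSE, diamonds ERSE-II, the triangle TGACGTG and ticks the core of the hypoxia response element. ERSE stands in the windows of 6 genes and ERSE-II in those of 3.

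In hypoxia without compound, most of the measured chaperones and isomerases of the ER were lower, and 3 of the sensors and transcription factors were higher. In hypoxic over normoxic vehicle cultures 15 of the 33 measured members fell and 10 rose, or 45.5% and 30.3% of them. Among all genes tested, 29.4% were called lower and 28.2% higher in this comparison. The median change of the members was -0.27, against 0.09 for all genes. In RNA from whole cultures, fewer cells of a type and less RNA per cell cannot be told apart.

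Of the 6 chaperones, 4 fell in hypoxia and 0 rose. HYOU1, an Hsp70 relative that helps HSPA5 exchange its nucleotide, stood at 7.43, 7.42 and 7.83 in hypoxic vehicle cultures, against 9.12, 9.43 and 9.04 in normoxic vehicle cultures. Each hypoxic culture lay below each normoxic one, and the change of -1.64 ± 0.13 made HYOU1 3.11-fold lower (adjusted p 2.22e-09). CALR, the soluble lectin chaperone of glycoproteins, read 10.58, 10.67 and 10.59 in hypoxic vehicle cultures, against 11.47, 11.69 and 11.61 in normoxic vehicle cultures, a change of -0.97 ± 0.10 with no overlap (adjusted p 1.08e-07). HSP90B1, the Hsp90 chaperone of the ER, read 11.44, 11.51 and 11.56 in hypoxic vehicle cultures, against 12.22, 12.24 and 12.22 in normoxic vehicle cultures, a change of -0.72 ± 0.11 with no overlap (adjusted p 2.02e-05). SDF2L1, a partner of HSPA5 and its J-domain proteins, changed by -0.48 ± 0.11 (adjusted p 0.00122).

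HSPA5, also called BiP, is the Hsp70 chaperone of the ER lumen and keeps the sensors inactive while it is free of unfolded chains. It read 11.27, 11.46 and 11.35 in hypoxic vehicle cultures, against 11.44, 11.82 and 11.63 in normoxic vehicle cultures. The groups overlapped slightly, and the change of -0.27 ± 0.14 was not called (adjusted p 0.10), although it was called without normoxic replicate 1 (-0.36, adjusted p 0.0481). CANX, the membrane-bound lectin chaperone, changed by -0.28 ± 0.12 (adjusted p 0.0509) and was called without hypoxic vehicle replicate 2 (-0.33, adjusted p 0.0431).

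The isomerases and the J-domain co-chaperones that hand chains to HSPA5 each included 1 gene that rose. PDIA4 read 9.31, 9.18 and 9.38 in hypoxic vehicle cultures, against 10.64, 10.75 and 10.77 in normoxic vehicle cultures, so that hypoxic cultures lay 2.69-fold lower without overlap (-1.43 ± 0.09, adjusted p 2.5e-10). PDIA6, an isomerase known to act on the sensor IRE1, read 10.30, 10.26 and 10.36 in hypoxic vehicle cultures, against 11.26, 11.43 and 11.25 in normoxic vehicle cultures, which was 2.01-fold lower (-1.01 ± 0.11, adjusted p 1.64e-07). PDIA5, an isomerase known to help activate ATF6, rose by 0.66 ± 0.11 (adjusted p 6.11e-05). DNAJB9, a J-domain protein that keeps IRE1 bound to HSPA5, read 9.65, 9.97 and 9.55 in hypoxic vehicle cultures, against 8.06, 7.97 and 7.89 in normoxic vehicle cultures. Hypoxic cultures were all above normoxic ones, 3.36-fold in the means (1.75 ± 0.11, adjusted p 2.64e-10). The other J-domain proteins fell, DNAJB11 by 0.77 ± 0.12 (adjusted p 2.54e-05) and DNAJC3 by 0.45 ± 0.14 on the log2 scale (adjusted p 0.00831).

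Among the 5 sensors and transcription factors, 3 rose and 1 fell. ERN1, which codes for IRE1, the sensor that splices XBP1 messenger RNA, read 8.59, 8.62 and 8.74 in hypoxic vehicle cultures, against 7.63, 7.59 and 7.62 in normoxic vehicle cultures. The groups lay apart by 1.04 ± 0.09 (adjusted p 1.31e-08). EIF2AK3, which codes for PERK, the kinase that slows translation, was higher by 0.59 ± 0.14 (adjusted p 0.00189). CREB3L2, a membrane-bound transcription factor of the ATF6 kind, was higher by 0.66 ± 0.13 (adjusted p 0.000229). ATF6, the sensor that is cut in the Golgi and enters the nucleus, read 8.94, 9.03 and 8.67 in hypoxic vehicle cultures, against 9.44, 9.49 and 9.47 in normoxic vehicle cultures, and fell by 0.59 ± 0.14 (adjusted p 0.00149). XBP1 changed by -0.03 ± 0.09 and was not called (adjusted p 0.759). Its probe set gives the total signal and does not tell the spliced from the unspliced messenger RNA. The 2 secreted stress proteins were not called either, CRELD2 at -0.11 ± 0.11 and MANF at -0.19 ± 0.12.

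The 9 degradation genes split, with 4 lower and 3 higher. EDEM2, which starts the trimming of mannose from misfolded glycoproteins, read 7.21, 7.31 and 6.84 in hypoxic vehicle cultures, against 8.93, 8.89 and 8.85 in normoxic vehicle cultures. The hypoxic level was 3.41-fold lower without overlap (-1.77 ± 0.17, adjusted p 3.2e-08). EDEM1, a protein of the same family, rose by 0.53 ± 0.12 (adjusted p 0.0012). SYVN1, the ubiquitin ligase also called HRD1, rose by 0.53 ± 0.11 (adjusted p 0.000414), and HERPUD1, its membrane partner, by 0.85 ± 0.13 (adjusted p 1.85e-05). SEL1L, the adaptor that holds SYVN1 steady, changed by -0.29 ± 0.14 (adjusted p 0.073) and was called without normoxic replicate 1 (-0.38, adjusted p 0.0357). The falls of DERL1 (-0.46 ± 0.15), DERL2 (-0.24 ± 0.10) and OS9 (-0.42 ± 0.13) each depended on single arrays. DERL1 was not called without hypoxic vehicle replicate 3 (adjusted p 0.0684) or normoxic replicate 2 (0.0705), and OS9 was not called without normoxic replicate 2 (0.0562). DERL2, with an adjusted p of 0.0496 over all arrays, was not called without hypoxic vehicle replicate 2 (0.169) or 3 (0.102), or normoxic replicate 1 (0.104) or 2 (0.141). DERL3, the third gene of the derlin family of membrane proteins, was not called (0.09 ± 0.11).

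The largest rise of the set in hypoxia was that of SEC24D, a cargo adaptor of the COPII vesicles that leave the ER. It read 9.70, 9.86 and 9.73 in hypoxic vehicle cultures, against 7.71, 8.09 and 7.82 in normoxic vehicle cultures, a 3.70-fold difference without overlap (1.89 ± 0.11, adjusted p 5.44e-11). TRAM2, a relative of the translocon protein TRAM1 that is known for its part in collagen synthesis, read 10.92, 11.37 and 11.02 in hypoxic vehicle cultures, against 9.43, 9.74 and 9.79 in normoxic vehicle cultures, and rose 2.74-fold (1.45 ± 0.15, adjusted p 1.09e-07). SSR1, a subunit of the translocon-associated complex, fell by 0.52 ± 0.13 (adjusted p 0.00287). WFS1, an ER membrane protein altered in Wolfram syndrome, fell by 0.43 ± 0.10 (adjusted p 0.00129). SEC61B, a subunit of the translocon itself, was not called (0.09 ± 0.13, adjusted p 0.542). Of the 25 calls in hypoxia, 22 were kept under each of 16 other settings, the exceptions being DERL1, DERL2 and OS9.

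**Figure D2:**
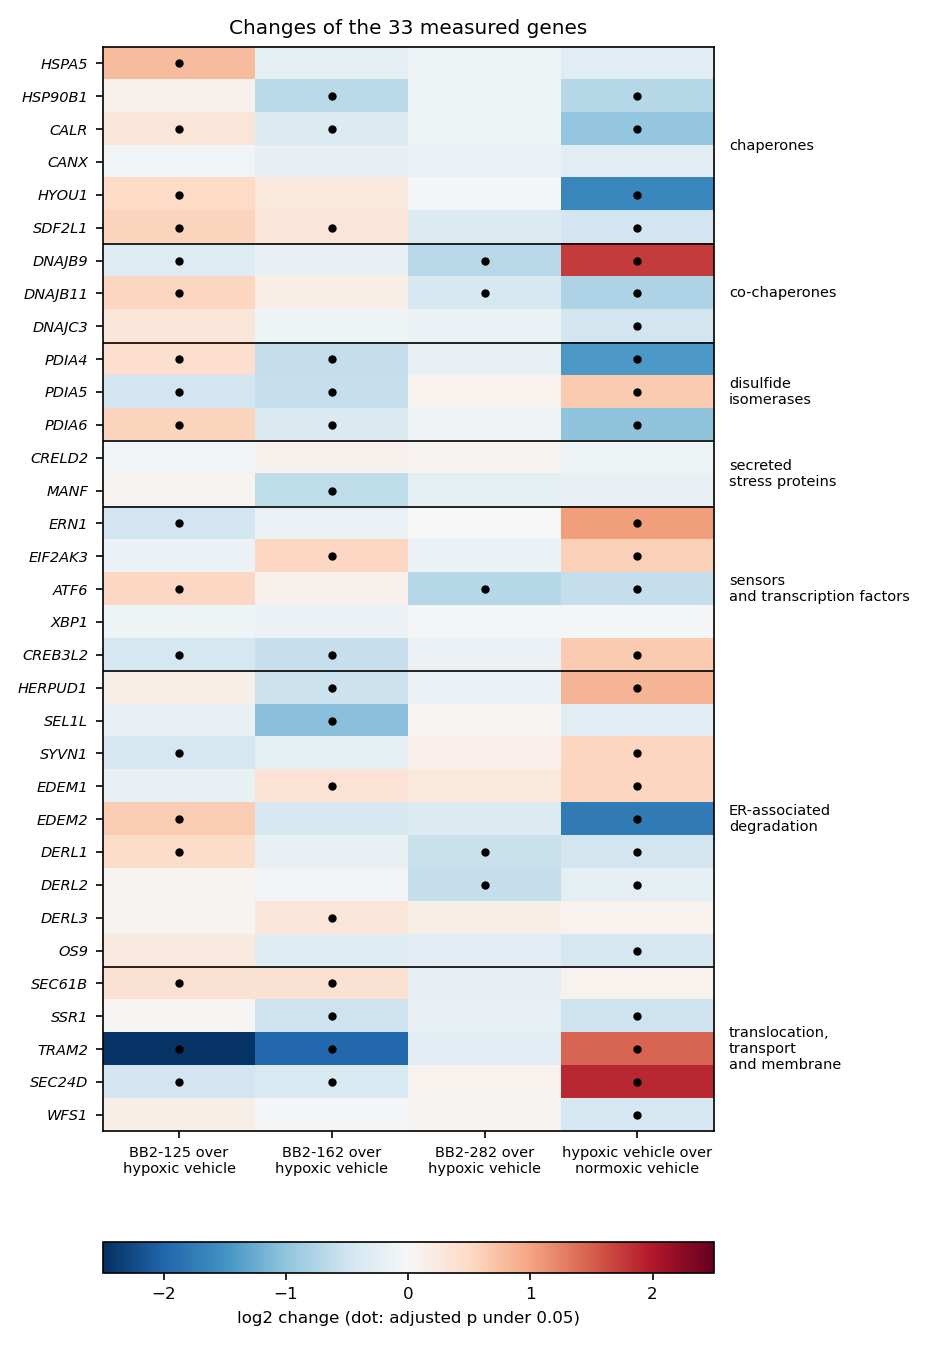
Change of each of the 33 measured genes on the log2 scale, as colour, for each compound against hypoxic vehicle and, in the last column, for hypoxic against normoxic vehicle cultures. Genes run down the page by role and a dot marks an adjusted p under 0.05. BB2-125 has 11 rises and 7 falls, BB2-162 has 5 and 12, BB2-282 has 0 and 5, and hypoxia has 10 and 15.

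Hypoxic cultures given BB2-125 had higher levels of 4 chaperones and 2 isomerases than hypoxic vehicle cultures, and TRAM2 fell more than any other member. In BB2-125 over hypoxic vehicle cultures 11 of 33 members rose (33.3%) and 7 fell (21.2%), beside 13.3% called higher and 15% called lower among all genes. The median change was 0.07 for the members and 0.02 for all genes. Without hypoxic vehicle replicate 3, 7 members rose and 7 fell. Of all genes 1833 then rose and 2268 fell, against 2135 and 2404 over all arrays. The hypoxic vehicle arrays enter this comparison and the one for hypoxia, so the changes of a gene in the 2 comparisons are not independent of each other.

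Chaperones and isomerases supplied 6 of the 11 rises. HSPA5 read 12.02, 12.31 and 12.14 with BB2-125, against 11.27, 11.46 and 11.35 in hypoxic vehicle cultures. Each treated culture lay above each vehicle culture, 1.74-fold in the means (0.80 ± 0.14, adjusted p 0.000203). PDIA6 read 10.78, 10.93 and 10.89 with BB2-125, against 10.30, 10.26 and 10.36 in hypoxic vehicle cultures. PDIA4 read 9.72, 9.68 and 9.74 with BB2-125, against 9.31, 9.18 and 9.38 in hypoxic vehicle cultures. Neither pair of groups overlapped, and the changes were 0.56 ± 0.11 for PDIA6 (adjusted p 0.000491) and 0.42 ± 0.09 for PDIA4 (adjusted p 0.00196). SDF2L1 (0.56 ± 0.11), HYOU1 (0.50 ± 0.13) and CALR (0.30 ± 0.10) rose as well, and so did the co-chaperone DNAJB11 (0.54 ± 0.12). HSP90B1 was at 0.10 ± 0.11 and CANX at -0.06 ± 0.12, and neither was called. The call of CALR (adjusted p 0.0271) was lost without BB2-125 replicate 1 (0.0812) or 3 (0.0692), or without hypoxic vehicle replicate 1 (0.0784) or 3 (0.0712).

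Same-numbered arrays of these 2 groups deviated together, and taking the number as a block over all 15 arrays left 11 rises and 7 falls. A block in a fit of the 2 groups alone, which also drops the other arrays, gave 12 rises and 6 falls. DNAJB9 changed by -0.32 ± 0.11 with overlapping groups (adjusted p 0.0473), and its adjusted p was 0.0511 with that block and 0.0985 in the same fit without it. It was also not called without BB2-125 replicate 2 (0.115) or 3 (0.193), or hypoxic vehicle replicate 1 (0.0588) or 2 (0.275). DNAJC3, whose change of 0.31 ± 0.14 was not called (adjusted p 0.0997), had an adjusted p of 0.0303 with that block, 0.0513 in the same fit without it and 0.0191 with array weights.

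The sensors moved in both directions with BB2-125. ERN1 read 8.11, 8.12 and 8.30 with BB2-125, against 8.59, 8.62 and 8.74 in hypoxic vehicle cultures, and fell by 0.47 ± 0.09 without overlap (adjusted p 0.000541). ATF6 rose by 0.51 ± 0.14 (adjusted p 0.0104), a call lost without BB2-125 replicate 2 (0.059) or hypoxic vehicle replicate 3 (0.0606). CREB3L2 fell by 0.44 ± 0.13 (adjusted p 0.014), a call lost without BB2-125 replicate 3 (0.0629) or hypoxic vehicle replicate 2 (0.0975). EIF2AK3 (-0.14 ± 0.14) and XBP1 (-0.10 ± 0.09) were not called, nor were CRELD2 (-0.07 ± 0.11) and MANF (0.07 ± 0.12).

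In the degradation group EDEM2 rose by 0.63 ± 0.17 (adjusted p 0.00734) and SYVN1 fell by 0.42 ± 0.11 (adjusted p 0.0068). DERL1, a membrane protein of the degradation channel, rose by 0.46 ± 0.15 (adjusted p 0.0281), and that call was lost without BB2-125 replicate 2 (0.126) or 3 (0.0606), or hypoxic vehicle replicate 3 (0.113). HERPUD1 was at 0.14 ± 0.13 and SEL1L at -0.19 ± 0.14, neither of them called. TRAM2 read 8.58, 8.77 and 8.59 with BB2-125, against 10.92, 11.37 and 11.02 in hypoxic vehicle cultures. The groups were far apart, with TRAM2 5.5-fold lower (-2.46 ± 0.15, adjusted p 1.55e-09), the only member past a 2-fold change in this comparison. SEC24D fell by 0.48 ± 0.11 (adjusted p 0.00281) and PDIA5 by 0.47 ± 0.11 (adjusted p 0.00393). SEC61B rose by 0.38 ± 0.13 (adjusted p 0.0328), but leaving out any 1 of the 6 arrays put its adjusted p between 0.0571 and 0.0999. Calls kept under each of the 16 other settings were 12 of the 18, namely the rises of HSPA5, HYOU1, SDF2L1, DNAJB11, PDIA4, PDIA6 and EDEM2 and the falls of PDIA5, ERN1, SYVN1, TRAM2 and SEC24D.

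**Figure D3:**
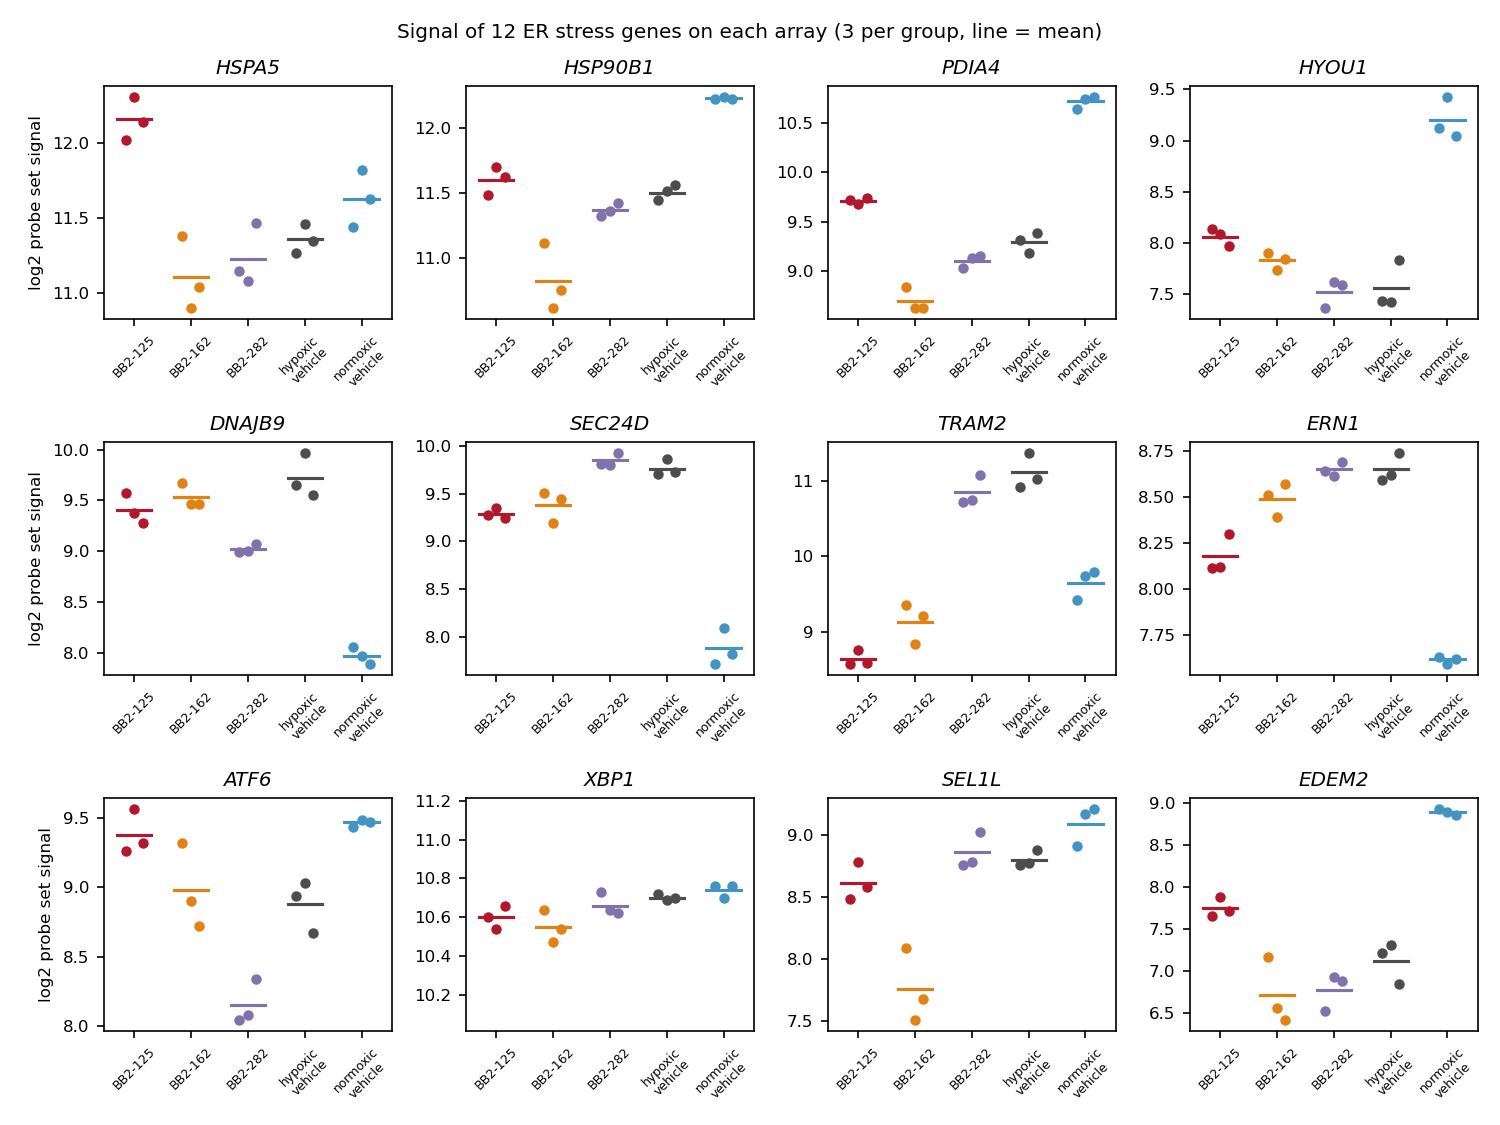
Log2 signal of 12 of the genes in each of the 15 cultures, with 3 points and a line at the mean for each group, the compound groups left of hypoxic vehicle and normoxic vehicle at the right. Each panel has its own vertical range, which does not start at 0, so heights are not to be compared between panels. HSPA5 lies highest with BB2-125, at 12.02 to 12.31, and SEL1L lowest with BB2-162, at 7.51 to 8.09.

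With BB2-162 more members fell than rose, among them 2 chaperones, the 3 measured isomerases and the degradation adaptor SEL1L. In BB2-162 over hypoxic vehicle cultures 12 members fell (36.4%) and 5 rose (15.2%), beside 20.4% called lower and 15.7% called higher among all genes. The median change was -0.21 for the members and 0.06 for all genes. Without BB2-162 replicate 1, the array that stood apart, 16 members fell and 3 rose, with a median of -0.35. The counts of all genes also grew without it, to 3950 lower and 3748 higher, from 3269 and 2511 over all arrays. The rises numbered 2 without BB2-162 replicate 2 or hypoxic vehicle replicate 1 or 2, and 1 without BB2-162 replicate 3, which left 10 falls. The number of all genes called higher dropped as well. It was 1688 without BB2-162 replicate 2 and 1557 without replicate 3. It was 1591 without hypoxic vehicle replicate 1 and 1471 without replicate 2. Of all called genes 43.4% were higher with BB2-162, and 28.2% when each array was centred on its median. The split of the members was then 1 higher and 14 lower.

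SEL1L read 8.09, 7.51 and 7.68 with BB2-162, against 8.76, 8.77 and 8.88 in hypoxic vehicle cultures. All treated cultures lay below the vehicle cultures, 2.06-fold in the means (-1.05 ± 0.14, adjusted p 1.15e-05), and the change was -1.21 without replicate 1. HERPUD1 fell by 0.54 ± 0.13 (adjusted p 0.00413), and its change was -0.70 without replicate 1. EDEM1 rose by 0.37 ± 0.12 with overlapping groups (adjusted p 0.0244), a call lost without BB2-162 replicate 1 (0.26, adjusted p 0.0819) or 3 (0.0734) or hypoxic vehicle replicate 1 (0.115). EDEM2 at -0.41 ± 0.17 and OS9, a lectin that brings glycoproteins to SEL1L, at -0.30 ± 0.13 were not called over all arrays, and without BB2-162 replicate 1 they were, at -0.64 (adjusted p 0.00167) and -0.48 (adjusted p 0.00145). EDEM2 was also called without hypoxic vehicle replicate 3 (-0.55, adjusted p 0.0198). DERL3 rose by 0.31 ± 0.11 with overlapping groups (adjusted p 0.0409), which was lost without BB2-162 replicate 2 (0.13) or 3 (0.142) or hypoxic vehicle replicate 1 (0.209) or 2 (0.0776).

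HSP90B1 read 11.11, 10.61 and 10.75 with BB2-162, against 11.44, 11.51 and 11.56 in hypoxic vehicle cultures, and fell by 0.68 ± 0.11 without overlap (adjusted p 0.000132). PDIA4 read 8.83, 8.62 and 8.62 with BB2-162, against 9.31, 9.18 and 9.38 in hypoxic vehicle cultures, a fall of 0.60 ± 0.09 (adjusted p 7.9e-05). These chaperone and isomerase transcripts were lower in each BB2-162 culture than in each vehicle culture, and without replicate 1 the changes were -0.83 and -0.67. PDIA5 fell by 0.57 ± 0.11 (adjusted p 0.000772), with a change of -0.67 without replicate 1. PDIA6 fell by 0.37 ± 0.11 (adjusted p 0.0126, and 0.0803 without BB2-162 replicate 3). CALR fell by 0.34 ± 0.10 (adjusted p 0.0138), and its adjusted p was 0.0541 without BB2-162 replicate 2, 0.061 without replicate 3 and 0.0539 without hypoxic vehicle replicate 2.

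HSPA5 read 11.38, 10.90 and 11.04 with BB2-162, against 11.27, 11.46 and 11.35 in hypoxic vehicle cultures. The groups overlapped through BB2-162 replicate 1, and the change of -0.25 ± 0.14 was not called (adjusted p 0.154). Without that array it was -0.39 and was called (adjusted p 0.0254), as was CANX, at -0.36 (adjusted p 0.0104) without it and -0.21 ± 0.12 with it. SDF2L1 rose by 0.30 ± 0.11 (adjusted p 0.0466), which did not hold without BB2-162 replicate 1 (0.0928), 2 (0.0939) or 3 (0.0564) or hypoxic vehicle replicate 2 (0.261) or 3 (0.0565). HYOU1 was at 0.27 ± 0.13 (adjusted p 0.105), and it was called without hypoxic vehicle replicate 3 (0.40, adjusted p 0.0187).

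MANF, a small secreted protein that binds HSPA5, read 9.10, 8.89 and 9.18 with BB2-162, against 9.70, 9.63 and 9.74 in hypoxic vehicle cultures. It fell by 0.63 ± 0.12 without overlap (adjusted p 0.00039), with a change of -0.65 without replicate 1. EIF2AK3 read 9.19, 8.54 and 8.73 with BB2-162, against 8.19, 8.50 and 8.20 in hypoxic vehicle cultures, and rose by 0.52 ± 0.14 (adjusted p 0.00976). The highest of these values was that of replicate 1, without which the rise was 0.33 (adjusted p 0.0386). CREB3L2 fell by 0.57 ± 0.13 (adjusted p 0.00232), at -0.68 without replicate 1, whereas ERN1 (-0.16 ± 0.09), ATF6 (0.11 ± 0.14) and XBP1 (-0.15 ± 0.09) were not called.

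TRAM2 read 9.36, 8.84 and 9.21 with BB2-162, against 10.92, 11.37 and 11.02 in hypoxic vehicle cultures, so that treated cultures were 3.91-fold lower without overlap (-1.97 ± 0.15, adjusted p 2.64e-08, and -2.08 without replicate 1). SSR1 fell by 0.52 ± 0.13 with overlapping groups (adjusted p 0.00629), and by 0.72 without BB2-162 replicate 1. SEC24D fell by 0.38 ± 0.11 (adjusted p 0.0125), with an adjusted p of 0.0735 without BB2-162 replicate 2 and 0.0591 without hypoxic vehicle replicate 2. SEC61B rose by 0.38 ± 0.13 (adjusted p 0.0271), and its adjusted p lay between 0.0504 and 0.0804 without BB2-162 replicate 2 or 3 or hypoxic vehicle replicate 1 or 2. Of the 17 calls, 8 were kept under each of the 16 other settings, all of them falls, of HSP90B1, PDIA4, PDIA5, MANF, CREB3L2, HERPUD1, SEL1L and TRAM2. The 5 rises each failed at least 1 of these settings.

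In BB2-282 over hypoxic vehicle cultures 5 members fell (15.2%) and 0 rose, beside 7.94% called lower and 5.65% called higher among all genes, and at an adjusted p under 0.05 limma left 28 members uncalled. The median change was -0.14 for the members and 0.02 for all genes. The members that fell were DNAJB9, DNAJB11, ATF6, DERL1 and DERL2. With array weights 9 fell and 1 rose, and without BB2-282 replicate 1 or hypoxic vehicle replicate 1 the number that fell was 3. Of all genes 1271 fell in the main fit and 2335 with array weights. The number was 816 without BB2-282 replicate 1 and 694 without hypoxic vehicle replicate 1.

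ATF6 read 8.04, 8.08 and 8.34 with BB2-282, against 8.94, 9.03 and 8.67 in hypoxic vehicle cultures, and fell by 0.72 ± 0.14 (adjusted p 0.00189). DNAJB9 read 8.99, 9.0 and 9.07 with BB2-282, against 9.65, 9.97 and 9.55 in hypoxic vehicle cultures, and fell by 0.70 ± 0.11 (adjusted p 0.000474). DERL2 read 9.93, 10.00 and 10.07 with BB2-282, against 10.72, 10.48 and 10.58 in hypoxic vehicle cultures, and fell by 0.59 ± 0.10 (adjusted p 0.000756). In each of these genes the treated cultures lay below the vehicle cultures without overlap, and the calls were kept under each of the 16 other settings. DERL1 fell by 0.56 ± 0.15 (adjusted p 0.0179), a call lost without BB2-282 replicate 1 (0.098) or 2 (0.0719) or hypoxic vehicle replicate 1 (0.0801) or 2 (0.0717). DNAJB11 fell by 0.40 ± 0.12 (adjusted p 0.0345), a call lost without BB2-282 replicate 1 (0.187) or 2 (0.0906) or hypoxic vehicle replicate 1 (0.097) or 3 (0.119).

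Among members not called with BB2-282, HSPA5 was at -0.13 ± 0.14 (adjusted p 0.646), HSP90B1 at -0.13 ± 0.11 (0.531), PDIA4 at -0.19 ± 0.09 (0.224), SEL1L at 0.05 ± 0.14 (0.871) and TRAM2 at -0.26 ± 0.15 (0.31). SDF2L1 was at -0.34 ± 0.11 (adjusted p 0.0538) and was called without hypoxic vehicle replicate 2 (-0.46, adjusted p 0.012). SEC61B, at -0.20 ± 0.13 over all arrays, was called without BB2-282 replicate 2 (-0.39, adjusted p 0.0322).

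The compounds were set against each other directly at the same dose and time, in 3 pairs. The differences of means use no vehicle array, while their errors and p-values come from the fit over all 15 arrays. P-values were adjusted over the genes of each pair and not over the 3 pairs. The code names carry no structure here, so no structural difference is named.

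BB2-125 over BB2-162 gave 15 members higher (45.5%) and 4 lower (12.1%), beside 16.7% and 9.43% of all genes, with a median of 0.24 against -0.05 for all genes. HSPA5 differed by 1.05 ± 0.14 (adjusted p 2.59e-05), PDIA4 by 1.02 ± 0.09 (adjusted p 6.62e-07) and EDEM2 by 1.04 ± 0.17 (adjusted p 0.000168), and the BB2-125 cultures were the higher ones without overlap in each. PDIA6 (0.93 ± 0.11), SEL1L (0.85 ± 0.14), HSP90B1 (0.78 ± 0.11), MANF (0.71 ± 0.12), HERPUD1 (0.67 ± 0.13) and CALR (0.64 ± 0.10) were also higher with BB2-125. These 9 differences were called under each of the 16 other settings. The 4 genes lower with BB2-125 were EIF2AK3 (-0.66 ± 0.14), EDEM1 (-0.55 ± 0.12), TRAM2 (-0.49 ± 0.15) and ERN1 (-0.31 ± 0.09). With a replicate block in a fit of the 2 groups alone 9 members were higher and 0 lower, so that none of the 4 was called there. Without BB2-125 replicate 1 or BB2-162 replicate 3, 2 members were lower. Of all genes 1510 were lower in the main fit and 456 with that block. The number was 860 without BB2-125 replicate 1 and 826 without BB2-162 replicate 3. The TRAM2 difference was not called without BB2-162 replicate 1 (-0.38, adjusted p 0.0616) or 3 (0.076) or BB2-125 replicate 1 (0.0714) or 3 (0.0655). ERN1 was not called without BB2-125 replicate 1 (0.0712) or 2 (0.0612) or BB2-162 replicate 3 (0.0739). Leaving out single arrays also ended the calls of ATF6 (0.40 ± 0.14, with an adjusted p of up to 0.225), DNAJB11 (0.38 ± 0.12, up to 0.142) and DNAJC3 (0.42 ± 0.14, up to 0.155). Without BB2-162 replicate 1 the counts were 16 higher and 4 lower, with 1.18 for HSPA5, 1.09 for PDIA4 and 1.26 for EDEM2. The counts of all genes were then 3499 higher and 2709 lower, against 2672 and 1510 over all arrays. Of all called genes 63.9% were higher with BB2-125, and 74.4% after array median centring.

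BB2-125 over BB2-282 gave 16 members higher (48.5%) and 6 lower (18.2%), beside 18.7% and 17.6% of all genes, with a median of 0.30 against 0.00 for all genes. ATF6 differed most among the higher ones, by 1.23 ± 0.14 (adjusted p 1.47e-06). It read 9.26, 9.57 and 9.32 with BB2-125 and 8.04, 8.08 and 8.34 with BB2-282, which did not overlap. DERL1 (1.02 ± 0.15), EDEM2 (0.98 ± 0.17), DNAJB11 (0.95 ± 0.12), HSPA5 (0.92 ± 0.14) and SDF2L1 (0.90 ± 0.11) followed. TRAM2 was lower with BB2-125 by 2.20 ± 0.15 on the log2 scale (adjusted p 3.36e-09). The other 5 lower genes were SEC24D (-0.56 ± 0.11), PDIA5 (-0.55 ± 0.11), SYVN1 (-0.54 ± 0.11), ERN1 (-0.47 ± 0.09) and EDEM1 (-0.44 ± 0.12). EDEM1 was not called without BB2-125 replicate 3 (adjusted p 0.0514), nor, among the higher genes, DNAJB9 without BB2-125 replicate 1 (0.074) and DNAJC3 without BB2-282 replicate 1 (0.0642). MANF (0.32 ± 0.12) was not called without BB2-125 replicate 1 (0.241) or 3 (0.0755) or BB2-282 replicate 2 (0.133) or 3 (0.0793).

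BB2-162 over BB2-282 gave 7 members higher (21.2%) and 11 lower (33.3%), beside 15.6% and 20.3% of all genes, with a median of -0.09 against 0.06 for all genes. ATF6 (0.83 ± 0.14), EIF2AK3 (0.66 ± 0.14), SDF2L1 (0.63 ± 0.11), SEC61B (0.58 ± 0.13), DNAJB11 (0.57 ± 0.12), DERL2 (0.53 ± 0.10) and DNAJB9 (0.51 ± 0.11) were higher with BB2-162, and these 7 calls were kept under each of the 16 other settings. TRAM2 (-1.71 ± 0.15) and SEL1L (-1.10 ± 0.14) were the lowest. Among the other lower genes, CREB3L2, HERPUD1, MANF, PDIA6 and SYVN1 each lost the call on leaving out single arrays, with adjusted p up to 0.0864 for CREB3L2, 0.186 for HERPUD1, 0.08 for MANF, 0.241 for PDIA6 and 0.11 for SYVN1. Without BB2-162 replicate 1 the counts were 7 higher and 13 lower, with 0.66 for ATF6, -1.82 for TRAM2 and -1.27 for SEL1L. The counts of all genes were then 3331 higher and 3694 lower, against 2489 and 3245 over all arrays. Without BB2-162 replicate 2, 6 members were lower, as were 2674 of all genes. Of all called genes 43.4% were higher with BB2-162, and 32.9% after array median centring.

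Some members did not differ detectably between compounds, and their intervals bound the difference. SEC61B differed by -0.00 between BB2-125 and BB2-162, with a 95% interval from -0.27 to 0.27. CANX differed by -0.03 between BB2-162 and BB2-282 (from -0.28 to 0.21). XBP1 was not called in any of the 3 pairs, with differences of 0.05 for BB2-125 over BB2-162 (from -0.13 to 0.23), -0.06 for BB2-125 over BB2-282 (from -0.24 to 0.12) and -0.11 for BB2-162 over BB2-282 (from -0.29 to 0.07).

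**Figure D4:**
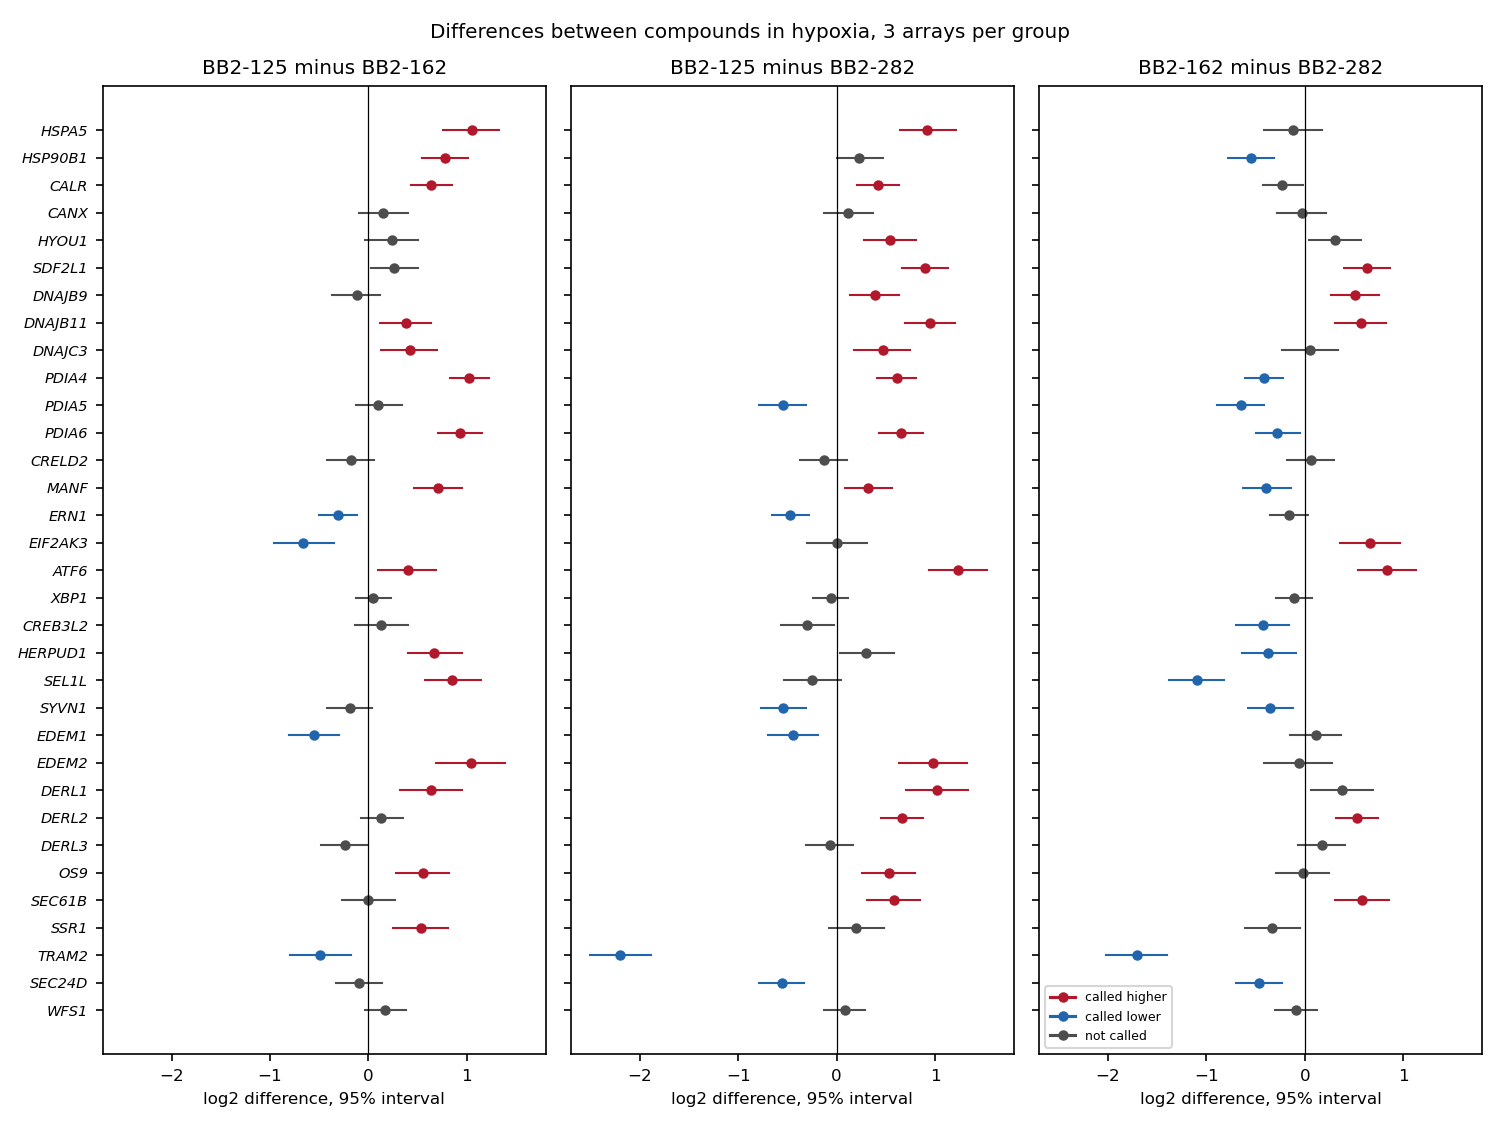
Difference between each pair of compounds on the log2 scale for the 33 genes, with bars for the 95% interval, in panels for BB2-125 over BB2-162, BB2-125 over BB2-282 and BB2-162 over BB2-282. Red points were called higher, blue points lower and grey points were not called. HSPA5 lies at 1.05 and 0.92 in the first 2 panels, and TRAM2 at -2.20 and -1.71 in the last 2.

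Each compound group in hypoxia was also set against normoxic vehicle cultures. These comparisons share the normoxic arrays with each other and with the comparison for hypoxia, so the values are given side by side and their likeness is not a result. With BB2-125, 8 members rose (24.2%) and 11 fell (33.3%), beside 31.5% and 30.5% of all genes. With BB2-162, 9 rose (27.3%) and 19 fell (57.6%), beside 42.4% and 34.4%, and without BB2-162 replicate 1 the counts were 8 and 20. Without that array 6950 of all genes rose and 5712 fell, against 6785 and 5511 over all arrays. With BB2-282, 10 rose (30.3%) and 18 fell (54.5%), beside 33.4% and 31.4%. The median of the members was -0.13 with BB2-125 (0.10 for all genes), -0.48 with BB2-162 (0.14) and -0.40 with BB2-282 (0.11). Array median centring brought the median of all genes for BB2-162 to 0.0279, against 0.139 without it.

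HSPA5 over normoxic vehicle was 0.53 ± 0.14 with BB2-125 (adjusted p 0.00291), -0.52 ± 0.14 with BB2-162 (0.00237) and -0.40 ± 0.14 with BB2-282 (0.017). The groups overlapped with BB2-282, and that call was lost without BB2-282 replicate 1 (0.0622) or 2 (0.0809) or normoxic replicate 2 (0.0928). TRAM2 was -1.01 ± 0.15 with BB2-125 (adjusted p 1.18e-05), -0.51 ± 0.15 with BB2-162 (0.00474, and -0.63 without replicate 1) and 1.19 ± 0.15 with BB2-282 (1.21e-06). Levels of TRAM2 were thus below normoxic vehicle in the first 2 compound groups and above it in the third.

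HYOU1 stayed lower than in normoxic vehicle in each compound group, at -1.14 ± 0.13 with BB2-125, -1.37 ± 0.13 with BB2-162 and -1.68 ± 0.13 with BB2-282. PDIA4 was at -1.01 ± 0.09 with BB2-125, -2.03 ± 0.09 with BB2-162 and -1.62 ± 0.09 with BB2-282. EDEM2 was at -1.14 ± 0.17 with BB2-125, -2.18 ± 0.17 with BB2-162 and -2.12 ± 0.17 with BB2-282. The sensor ERN1 and the adaptor SEC24D were higher in each, ERN1 at 0.56 ± 0.09 with BB2-125, 0.87 ± 0.09 with BB2-162 and 1.03 ± 0.09 with BB2-282, and SEC24D at 1.41 ± 0.11 with BB2-125, 1.51 ± 0.11 with BB2-162 and 1.97 ± 0.11 with BB2-282. ERN1 and SEC24D thus lay above normoxic vehicle in each compound group, and HYOU1, PDIA4 and EDEM2 lay below it. SDF2L1 was at 0.08 ± 0.11 with BB2-125 (adjusted p 0.551), -0.19 ± 0.11 with BB2-162 (0.136) and -0.82 ± 0.11 with BB2-282 (3.85e-06). ATF6 was at -0.09 ± 0.14 with BB2-125 (adjusted p 0.603), -0.48 ± 0.14 with BB2-162 (0.00477) and -1.32 ± 0.14 with BB2-282 (1.62e-07).

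The 12 genes called here downstream of PERK were counted beside the members. Their messenger RNA does not measure PERK activity, and other inputs to them were not examined. PERK phosphorylates a translation factor, which lets ATF4 be made, and ATF4 and its partners switch on genes of amino acid supply, redox balance and cell death. The 12 genes, none of them members, include ATF4 itself and are not limited to known targets of ATF4. In hypoxic over normoxic vehicle cultures 11 rose and 0 fell, with a median of 1.15. The 1 not called, named after its value was seen, was CHAC1 (0.26 ± 0.12, adjusted p 0.0729). DDIT3, the transcription factor CHOP, read 10.31, 10.19 and 9.95 in hypoxic vehicle cultures, against 6.92, 7.11 and 6.49 in normoxic vehicle cultures (3.31 ± 0.13, adjusted p 3.53e-13). PPP1R15A, a phosphatase subunit that restores translation, read 10.81, 10.25 and 11.02 in hypoxic vehicle cultures, against 7.47, 7.45 and 7.18 in normoxic vehicle cultures (3.33 ± 0.14, adjusted p 9.41e-13). In both genes the groups lay far apart.

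With BB2-125, 8 of the 12 rose and 0 fell against hypoxic vehicle, with a median of 0.75. NUPR1, a small stress-induced nuclear protein, read 10.49, 10.51 and 10.46 with BB2-125, against 8.06, 7.64 and 7.96 in hypoxic vehicle cultures, and rose by 2.60 ± 0.12 (adjusted p 9.91e-11). ASNS, the asparagine synthetase, rose by 1.54 ± 0.11 (adjusted p 8.84e-09). Also named after their values were seen, DDIT3 rose by 1.21 ± 0.13 (adjusted p 1.64e-06), and CEBPB, CEBPG, SESN2 and TRIB3 were not called. With BB2-162, 8 rose and 0 fell, with a median of 0.61 (0.56 without BB2-162 replicate 1, with the same counts). The genes that rose were not all the same as with BB2-125. Those not called over all arrays, named after their values were seen, were DDIT3 (0.24 ± 0.13, adjusted p 0.152), TRIB3 (0.01 ± 0.10), CEBPG (-0.08 ± 0.08) and CHAC1 (0.30 ± 0.12). The genes of lowest p there were the phosphatase subunits PPP1R15B (1.53 ± 0.13, adjusted p 1.12e-07) and PPP1R15A (1.62 ± 0.14, adjusted p 1.71e-07), at 1.38 and 1.64 without replicate 1.

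With BB2-282, 3 of the 12 rose and 2 fell, with a median of 0.20. NUPR1 rose by 0.95 ± 0.12 (adjusted p 2.82e-05) and CEBPB, a transcription factor that pairs with CHOP, fell by 0.43 ± 0.09 (adjusted p 0.00402). The others, named after their values were seen, were ASNS (0.38 ± 0.11) and PPP1R15A (0.50 ± 0.14), which rose, and ATF4 (-0.49 ± 0.15, adjusted p 0.0382), which fell. Under array median centring or quantile normalization 1 of these genes fell. Between compounds, 9 of the 12 were higher and 0 lower for BB2-125 over BB2-282, 6 and 0 for BB2-162 over BB2-282, and 4 and 3 for BB2-125 over BB2-162. The background shares of these comparisons are those given above, and the 12 genes were listed with earlier results of these data known.

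**Figure D5:**
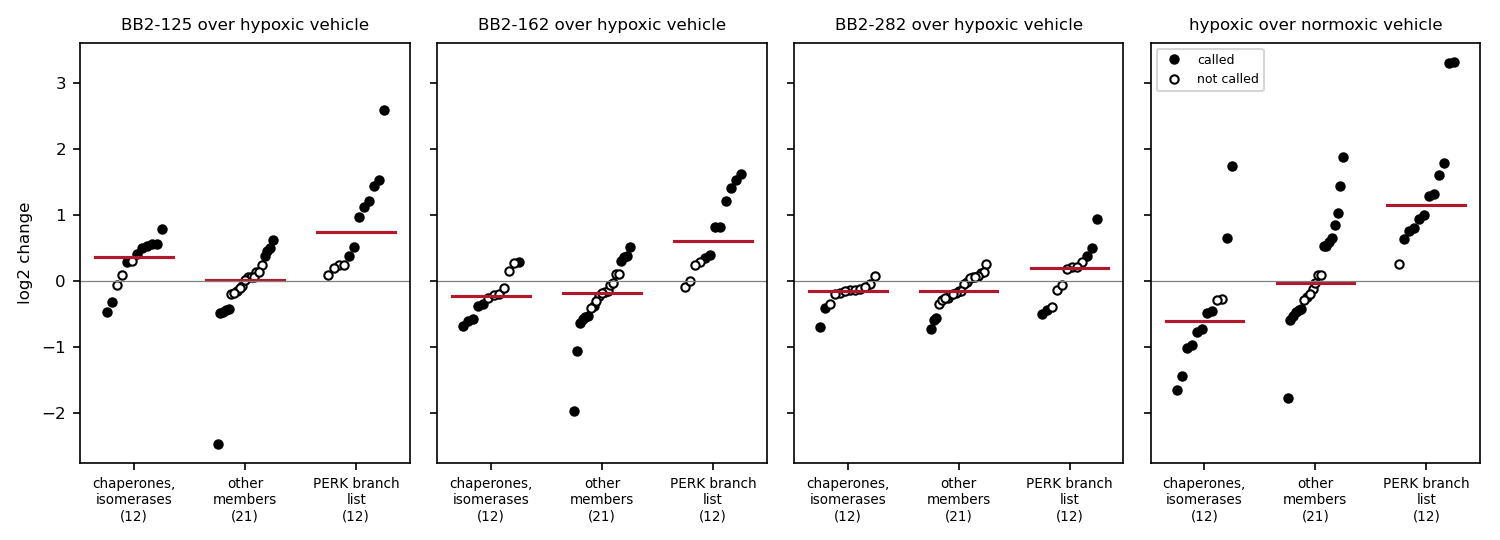
Change on the log2 scale of the 12 chaperones, co-chaperones and isomerases, the 21 other measured members and the 12 genes downstream of PERK, in panels for each compound against hypoxic vehicle and for hypoxic against normoxic vehicle. Filled points were called and a red line marks the median of each column. The median of the genes downstream of PERK is 0.75 with BB2-125, 0.61 with BB2-162, 0.20 with BB2-282 and 1.15 in hypoxia.

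Further ER genes were counted by role, beside the shares of all genes called. In hypoxia 28.2% of all genes rose and 29.4% fell. Against hypoxic vehicle 13.3% rose and 15% fell with BB2-125, 15.7% and 20.4% with BB2-162, and 5.65% and 7.94% with BB2-282. Without BB2-162 replicate 1, 3748 of the 16005 genes rose and 3950 fell with BB2-162, against 2511 and 3269 over all arrays. The lists were not tested against these shares. Of 29 measured chaperone, isomerase and redox genes outside the set, 16 fell and 6 rose in hypoxia, among them UGGT1, the folding sensor of glycoproteins (-2.14 ± 0.15), and FKBP7, a prolyl isomerase (-1.5 ± 0.11). Against hypoxic vehicle 5 rose and 2 fell with BB2-125, 0 and 9 with BB2-162 (0 and 16 without BB2-162 replicate 1) and 0 and 9 with BB2-282. TMX1, a membrane-bound thioredoxin relative, was at -1.49 ± 0.15 with BB2-162 (-1.74 without replicate 1) and -0.71 ± 0.15 with BB2-282, and CLGN, a relative of calnexin, at 1.13 ± 0.17 with BB2-125. CLGN averaged 5.12 in hypoxic vehicle cultures, near their mean 25th percentile of 4.7, and 6.25 with BB2-125. Its mean in normoxic vehicle cultures was 6.88.

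Of 26 further degradation genes, 7 rose and 11 fell in hypoxia, where NGLY1, which strips glycans from degraded proteins, was at 2.01 ± 0.10 and FOXRED2 at -2.24 ± 0.11. Against hypoxic vehicle 2 rose and 8 fell with BB2-125, 2 and 13 with BB2-162 (3 and 15 without replicate 1) and 0 and 5 with BB2-282. EDEM3, a mannosidase of the same family as EDEM1 and EDEM2, was at -1.78 ± 0.18 with BB2-162 (-2.04 without replicate 1). Of 31 translocon and glycosylation genes, 5 rose and 14 fell in hypoxia, including RPN2, a subunit of oligosaccharyltransferase (-1.86 ± 0.14). Against hypoxic vehicle 5 rose and 3 fell with BB2-125, 1 and 14 with BB2-162 (1 and 18 without replicate 1) and 0 and 7 with BB2-282. SEC61A2, a translocon subunit, was at 1.48 ± 0.12 with BB2-125 and 1.16 ± 0.12 with BB2-162 (1.02 without replicate 1). TRAM1, a translocon protein, went the other way, at -0.83 ± 0.09 with BB2-125 and -0.79 ± 0.09 with BB2-162 (-0.82 without replicate 1).

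Of 21 COPII and retrieval genes, 9 rose and 6 fell in hypoxia, led by KDELR3, a receptor that returns ER proteins from the Golgi (1.84 ± 0.14), and SEC24A, a cargo adaptor related to SEC24D (2.04 ± 0.16). Against hypoxic vehicle 0 rose and 7 fell with BB2-125, 1 and 9 with BB2-162 (1 and 13 without replicate 1) and 0 and 4 with BB2-282. KDELR3 fell with BB2-162 by 1.44 ± 0.14 (its change was -1.63 without replicate 1), SEC16A, which marks the sites of vesicle formation, with BB2-125 by 1.17 ± 0.15, and SAR1B, the GTPase that starts the coat, with BB2-282 by 1.05 ± 0.11. Of 17 further sensors, proteases and regulators, 6 rose and 6 fell in hypoxia, where MBTPS2, a protease that cuts ATF6, was at -1.95 ± 0.13. Against hypoxic vehicle 4 rose and 1 fell with BB2-125, 4 and 2 with BB2-162 (2 and 7 without replicate 1) and 2 and 2 with BB2-282.

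The members were also set side by side by the letters in their promoter windows, 9 with an exact match to ERSE or ERSE-II and 21 with neither. In hypoxic over normoxic vehicle cultures 1 of the 9 rose and 4 fell, with a median of -0.28, and 8 of the 21 rose and 10 fell, with a median of -0.24. HERPUD1 was the riser among the 9. With BB2-125 against hypoxic vehicle 4 of the 9 rose and 0 fell (median 0.14), and 6 of the 21 rose and 6 fell (median 0.07). The 4 were HSPA5, HYOU1, SDF2L1 and CALR, while HSP90B1, CANX, CRELD2, XBP1 and HERPUD1 hold an element and were not called. With BB2-162 the counts were 1 and 3 of the 9 (median -0.21) and 3 and 8 of the 21 (median -0.23), and with BB2-282 they were 0 and 0 of the 9 (median -0.13) and 0 and 4 of the 21 (median -0.19). No test was made of these counts, which describe 30 windows.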

How the data were processed

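Each deposited value was the linear-scale intensity of a probe set on an array, with 28869 probe sets and 15 arrays. They had been made with RMA, per the submitters' processing notes, which corrects background, normalizes between arrays and summarizes probes. The software that ran it is not given in the sources used here, nor is the build. The log2 of the deposited intensities was taken here. Median intensity per array ran from 74.91 to 84.6, 0 pairs of arrays were identical, and precision is set by the number of arrays.

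Probe sets were named through the platform's probe table, in which 19310 had 1 symbol, 1752 had several and 7807 were unnamed. The Entrez ID of 19279 was found in RefSeq's gene table. Where several probe sets named 1 of the 18377 genes, that of highest mean stood for it, and each of the 33 members had 1. A gene was tested if 3 or more arrays showed it above their own 25th percentile, which removed 2372 genes and no member.

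A single limma fit (version 3.58.1, R 4.3.3) with a mean for each of the 5 groups gave the changes (10 residual and 7.96 prior degrees of freedom), with Benjamini-Hochberg adjustment over 16005 genes in each of 10 comparisons and 3 arrays in each group. The procedure was tested on simulated data, with 200 of 16005 genes changed in hypoxic vehicle cultures. Of log2 changes of 0.75, 82% were recovered, and of 1.5, 100%, while 5.7% of calls were false. In the data 9207 genes were called in hypoxic over normoxic vehicle, so these rates hold for the simulated setting only. The genes named are all members and, for 6 other lists of ER genes, at most 2 of lowest p in each of the 4 comparisons with hypoxic vehicle, with NDRG1, VEGFA and EGLN3 as checks of the label. Beyond this rule, CHAC1 in hypoxia and ASNS, PPP1R15A and ATF4 with BB2-282 were named after their values were seen. Members and lists were chosen with earlier results of these data known. Same-numbered arrays were checked as pairs. In 1 of 10 pairs of groups, BB2-125 and hypoxic vehicle, each same-number correlation of deviations exceeded 0.1 (0.139 to 0.2677), and the blocked value is given there. Leaving out each array, array weights, other scalings, dim filters, fits of 2 groups alone, an intensity trend, the mean of probe sets and the replicate block were tried. Promoters were RefSeq windows of GRCh38.p14.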

Additional observations from a re-analysis of the deposited data

How the results depend on the processing

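Over 16 other settings in each of 10 comparisons, 5012 of 5280 member changes stayed on the same side of the threshold, 198 lost a call, 70 gained one and 0 called changes turned direction. The count of members called for BB2-162 against hypoxic vehicle was 17, and it was 9 in a fit of the 2 groups alone, with fewer arrays, and 9 with a replicate block in that fit. Without 1 array each it ran from 11 to 19. For BB2-282 against hypoxic vehicle it was 5, against 10 with array weights, where the cause was not tested, and 3 to 5 without 1 array each. For BB2-125 against BB2-162 it was 19, against 9 with a replicate block in a fit of the 2 groups alone. Leaving out 1 array gave 22 to 26 members for hypoxia and 13 to 16 for BB2-125 against hypoxic vehicle. The count of all genes called moved with the same settings. For BB2-162 against hypoxic vehicle it was 5780, against 3494 in the fit of the 2 groups alone and 3672 with the block. For BB2-282 against hypoxic vehicle it was 2176, against 4193 with array weights, 1258 without BB2-282 replicate 2, and 1222 and 1352 without hypoxic vehicle replicates 1 and 2. For BB2-125 against BB2-162 it was 4182, against 2582 and 1849 in those 2 fits and 2645 without BB2-162 replicate 3. Except for BB2-125 and hypoxic vehicle, the replicate numbers did not pair the groups, and the block over all 15 arrays left each count of members within 1.5 times.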
